A study of Rattus norvegicus with 8 samples.

Results

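The genes described here encode 10 subunits of voltage-gated calcium channels. They were chosen by name from a fixed list, with earlier results of these data known. They are 4 alpha1 genes (Cacna1a, Cacna1b, Cacna1c and Cacna1h), 3 beta genes (Cacnb1, Cacnb3 and Cacnb4) and 3 alpha2delta genes (Cacna2d1, Cacna2d2 and Cacna2d3). All 10 were found among the 17379 genes of the tables. The RNA was that of sensory neurons from dorsal root ganglia of rat embryos (E15), kept for 7 days in microfluidic chambers that let axons grow into a compartment separate from the cell bodies. On the day of plating, every culture received a lentivirus, carrying either a control hairpin (shControl) or a hairpin against Pum2 (shPum2), so the controls were transduced as well. The labels name no strain, Cre or promoter for the virus. There were 4 groups of 2 libraries: somatic shControl, somatic shPum2, axonal shControl and axonal shPum2. A standard kit served for the somatic RNA and an ultra-low input kit for the axonal RNA, so a difference between compartments and one between kits cannot be told apart. The source of the somatic RNA is labelled as cell bodies and axons together. The labels do not say whether the 2 libraries of a group came from separate cultures, so the p-values measure the spread between these libraries, which may be technical.

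A voltage-gated calcium channel opens on depolarisation and lets calcium into the cell. The alpha1 subunit forms the pore and sets the channel type. A beta subunit binds alpha1 from the cytoplasm and promotes its delivery to the membrane, and an alpha2delta subunit on the outer face raises the amount and the function of the channel at the surface. In sensory neurons these channels trigger transmitter release at central terminals and shape firing. The N-type channel and alpha2delta-1 are known drug targets in pain.

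Libraries held 16725876 to 25821766 counts in somatic and 11641947 to 16131611 in axonal groups, and 14038 to 14263 against 9542 to 10730 genes had a count. The spread between replicates was far larger in axonal libraries: the biological coefficient of variation that edgeR estimated over all genes tested was 23% among somatic and 125% among axonal libraries. Pum2 stood at 164 and 160 CPM (counts scaled to the library total) in somatic shControl libraries and at 38.2 and 36.5 CPM with shPum2. This was a fall of 2.13 on the log2 scale (SE 0.0745; adjusted p = 0.0247, edgeR quasi-likelihood test with Benjamini-Hochberg adjustment). Axonal Pum2 levels were 3.25 and 0.443 CPM in shControl and 1.46 and 7.07 CPM in shPum2 libraries (log2 difference 1.25, SE 2.37; edgeR adjusted p = 0.9998), so there the knockdown rests on the labels alone. The summed level of 9 neuron markers was 27200 to 32000 CPM in somatic and 15300 to 30700 CPM in axonal libraries. Nefm held most of the axonal sum, with 16300 and 10300 CPM in shControl and 23700 and 14300 CPM in shPum2 axons. The group mean of each other neuron marker was lower in axons with either hairpin. With shControl, Prph stood at 10200 CPM in somata and 1140 CPM in axons, and Tubb3 at 4000 and 771 CPM. Markers of macrophages and blood (8 genes) summed to 39.6 to 165 CPM in somatic and 250 to 3540 CPM in axonal libraries, and 4 muscle markers to 18.4 to 20.7 and 269 to 1290 CPM. Fibroblast markers (8 genes) summed to 1630 to 8520 CPM in somatic and 69 to 724 CPM in axonal libraries, and those of Schwann and satellite glia (7 genes) to 19.4 to 47.2 and 25.3 to 89.3 CPM. Erbb3, a defining glial marker, was at 0 in 3 of the 4 axonal libraries, and Des, a defining muscle marker, in 3 as well. Of the 8 macrophage and blood markers, 6 to 8 reached 1 CPM in each axonal library, and Ptprc was at 0 in 1 of them.

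All 10 genes were read in both somatic groups, at levels set far apart. Levels of different genes are compared in TPM, which also divides by transcript length. In somatic shControl libraries Cacnb3, a beta subunit that binds N-type and other high-voltage channels, stood first with 429 ± 5.12 TPM (SD, n = 2). Next came Cacna2d1, the alpha2delta-1 subunit that binds gabapentin, with 107 ± 9.65 TPM, and Cacna1b, the pore of the N-type channel, with 97.7 ± 4.31 TPM. The libraries of these last 2 genes overlapped, so their order is not set by these data. Cacnb1 (69.4 ± 1.72 TPM) and Cacna2d2, another subunit that binds gabapentin (66.4 ± 4.97 TPM), overlapped in the same way. Cacna1h, the pore of a T-type channel, opened by small depolarisations, followed with 46.4 ± 2.51 TPM. Cacna1a, the pore of the P/Q-type channel, had 31.3 ± 2.48 TPM. At the low end stood Cacnb4 with 14.3 ± 2.98 TPM, Cacna1c, the pore of an L-type channel, with 10.8 ± 0.932 TPM, and Cacna2d3 with 6.87 ± 0.75 TPM. Apart from the pairs named, neighbours in this order did not overlap. With shPum2 the somatic order again ran from Cacnb3 (388 ± 31.6 TPM) to Cacna2d3 (7.32 TPM), and the overlapping neighbours were Cacna2d1 with Cacna1b, Cacna2d2 with Cacnb1, and Cacna1c (11.3 ± 2.87 TPM) with Cacnb4 (11.1 ± 0.0728 TPM).

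Within somatic libraries the subunit classes took stable parts of the summed TPM of the 10 genes. The 3 beta genes held 54.7% to 59.4%, the 4 alpha1 genes 21.0% to 22.1% and the 3 alpha2delta genes 19.4% to 23.1% over the 4 somatic libraries. Cacnb3 alone held 46.2% to 50.1%. Of the alpha1 genes, Cacna1b was the highest in TPM in both somatic groups. It was listed as 2 transcripts of 9695 and 7065 bases, and the longer held 82.8%, 83.0%, 83.8% and 85.7% of the gene's counts in the somatic libraries. Of the 3 transcripts listed for Cacna2d1, the one of 3964 bases held 99.5% to 99.8% of the gene's somatic counts.

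**Figure D1:**
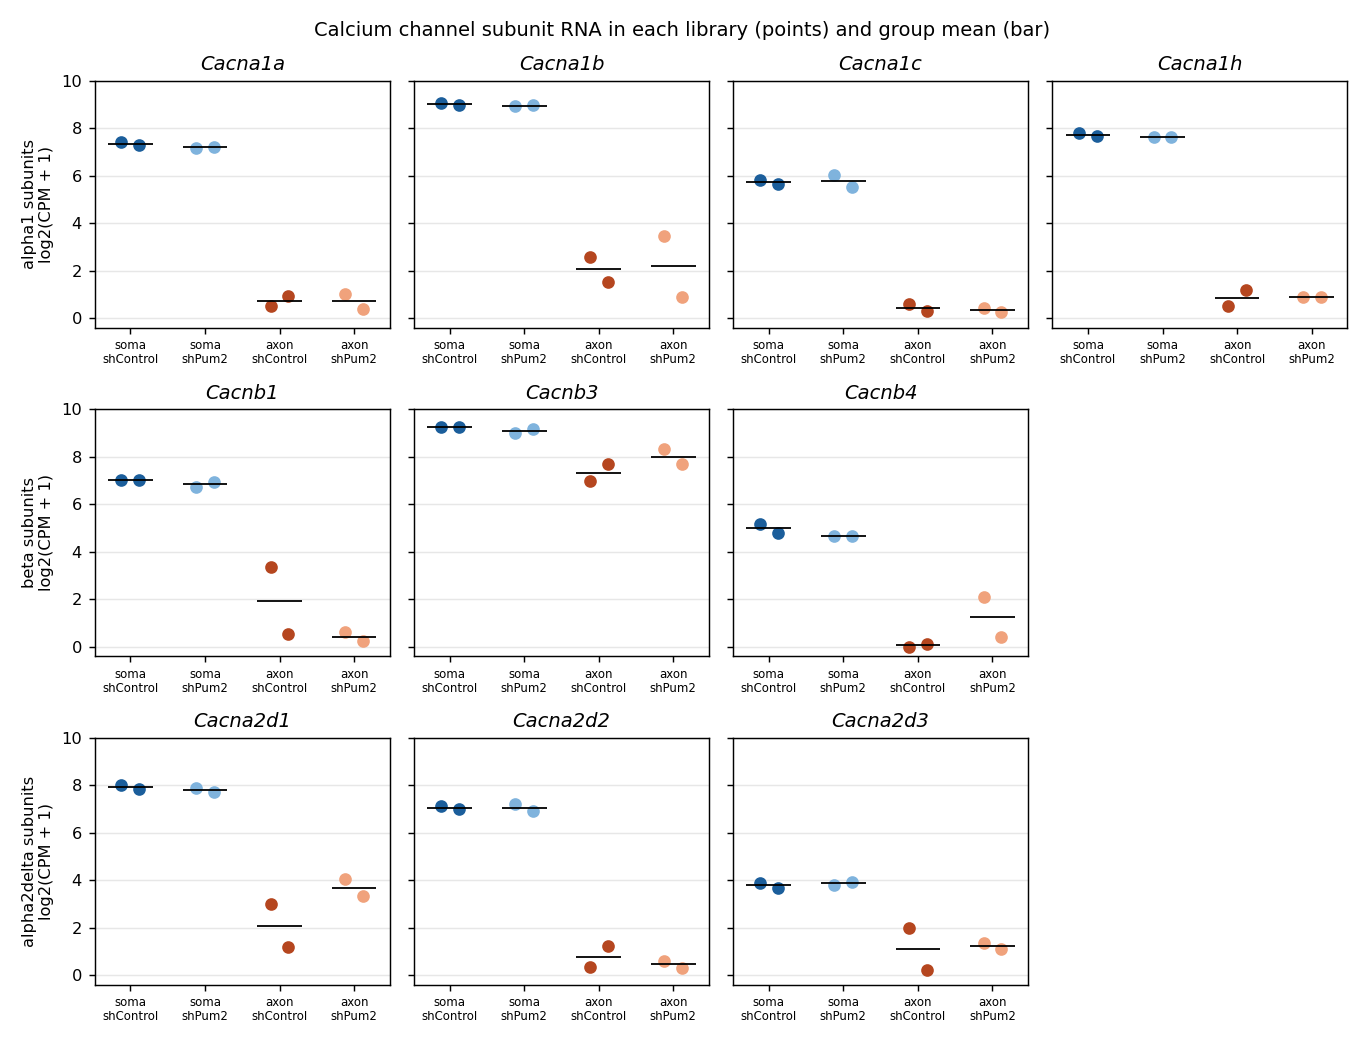
Level of each of the 10 calcium channel genes in each of the 8 libraries, as log2(CPM + 1) on the y axis, where points are libraries and bars the mean of the 2 log2 values of a group. Somatic points of a gene lie close together in both hairpin groups, and the axonal points of Cacnb3 (126 to 323 CPM) lie above those of the other 9 genes (15.5 CPM or lower).

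In axons, most of the signal of these genes came from Cacnb3. It stood at 607 and 606 CPM in somatic shControl libraries and at 126 and 206 CPM in axonal shControl libraries, with 1472 and 2783 counts behind the axonal values. In shPum2 libraries it stood at 515 and 585 CPM in somata and at 323 and 206 CPM in axons (3765 and 3318 counts). The axonal libraries were below the somatic ones with either hairpin, yet no axonal library lacked the transcript. The other 9 genes stood at 15.5 CPM or lower in every axonal library, and their CPM summed to 25.7 and 7.54 in shControl and 33.7 and 13.1 in shPum2 axons, against 1390 to 1560 in somata. CPM is a share of each library's total, so these values measure neither the number of axons in a chamber nor the RNA per axon.

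The alpha1 genes were near the limit of counting in axons. A total of 3 counts in an axonal library corresponds to 0.186 to 0.258 CPM. Cacna1b had the most alpha1 reads there, with 58 and 26 counts (4.96 and 1.92 CPM) in shControl and 118 and 14 counts (10.1 and 0.868 CPM) in shPum2 axons, where somatic libraries had 535 and 511, and 486 and 513 CPM. Cacna1a had 5 and 12 counts in shControl and 12 and 5 counts in shPum2 axons, against 172 and 156, and 145 and 149 CPM in somata. Cacna1h had 5 and 17, and 10 and 14 counts in axons, and 220 and 207, and 201 and 196 CPM in somata. For all 3 genes each axonal library lay far below each somatic one. Cacna1c had 3 to 6 counts in each axonal library and 45.3 to 64.4 CPM in somatic libraries.

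Among the beta genes, Cacnb1 and Cacnb4 did not share the axonal level of Cacnb3. Cacnb1 was read at 131 and 129 CPM in shControl and 106 and 122 CPM in shPum2 somata. Its axonal counts were 108 and 6 in shControl and 6 and 3 in shPum2 libraries, so 1 library holds most of them. Cacnb4, at 35.4 and 26.7 CPM in shControl and 24.2 and 24.3 CPM in shPum2 somata, had 0 and 1 counts in shControl axons and 38 and 5 counts in shPum2 axons. In CPM, both genes varied more between axonal replicates of a group than the group means differed.

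The alpha2delta genes differed among themselves. Cacna2d1 had 81 and 17 counts (6.93 and 1.26 CPM) in shControl axons and 180 and 145 counts (15.5 and 8.99 CPM) in shPum2 axons, against 257 and 229, and 233 and 212 CPM in somata. It was the second gene in axonal shPum2 libraries, with 2.45 ± 1.15 TPM (n = 2) after Cacnb3 with 84.6 ± 36.1 TPM. Cacna2d2 had 3 and 18, and 6 and 4 axonal counts, as few as some alpha1 genes, and 119 to 147 CPM in somata. Cacna2d3, the gene with the lowest somatic TPM, had 34 and 2 counts in shControl axons and 18 and 18 in shPum2 axons, against 11.9 to 14.4 CPM in somata.

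Cacnb3 therefore filled almost all of the axonal signal of this gene set. It held 89.2% and 98.4% of the summed TPM of the 10 genes in axonal shControl and 95.1% and 96.4% in axonal shPum2 libraries. The alpha1 genes together held 0.307% to 1.15% and the alpha2delta genes 0.877% to 4.74%. Every axonal library had a higher Cacnb3 share than every somatic library, which is given as a description with no test.

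**Figure D2:**
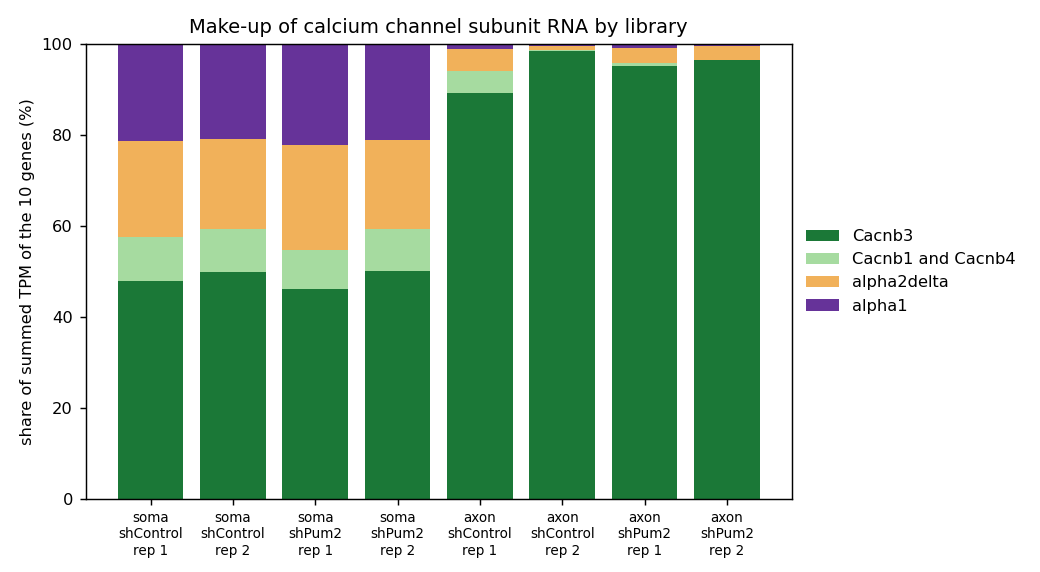
Stacked bars of the share (percent, y axis) of the summed TPM of the 10 calcium channel genes held by Cacnb3, by Cacnb1 with Cacnb4, by the alpha2delta and by the alpha1 genes in each of the 8 libraries (x axis). Cacnb3 holds 46.2% to 50.1% in somatic bars and 89.2% to 98.4% in axonal bars.

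The compartments were next compared gene by gene, in a fit of all 8 libraries. Pooled over the 2 shControl libraries of a compartment, and with 95% counting intervals that leave out replicate spread, Cacna1h was 244-fold (161 to 390) and Cacna1a 241-fold (151 to 415) higher in somatic than in axonal CPM. The ratio was 156-fold (126 to 196) for Cacna1b and 145-fold (76.3 to 318) for Cacna1c. For Cacnb3 it was 3.59-fold (3.48 to 3.71). Cacna2d1 (62.0-fold, 50.8 to 76.4), Cacna2d2 (158-fold, 103 to 256), Cacnb1 (28.7-fold, 23.9 to 34.9) and Cacna2d3 (8.87-fold, 6.32 to 12.8) spread over the same range, with Cacna2d2 beside the alpha1 genes. Cacnb4 rested on 1 axonal count, with a ratio of 765 and an interval of 137 to 30300.

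After replicate spread was taken into account, 7 of the 10 genes were called lower in shControl axons than in shControl somata. Of all 12337 genes tested, 18.5% were called lower and 9.41% higher. Of the 7, Cacna1c, Cacnb4 and Cacna2d2 had too few counts to be tested in the axonal libraries alone. They passed the filter of this fit through their somatic counts, so they could hardly be called higher. The 12337 genes hold others of this kind, as 8517 were tested in axonal libraries alone, and so do the lists below. All 4 alpha1 genes were lower. On the log2 scale, after TMM scaling, Cacna1a differed by -6.38 (SE 0.847; adjusted p = 0.0072, edgeR quasi-likelihood test with Benjamini-Hochberg adjustment). Cacna1h differed by -6.41 (SE 0.818; adjusted p = 0.0065), Cacna1b by -5.65 (SE 1.09; adjusted p = 0.0189) and Cacna1c by -5.55 (SE 1.05; adjusted p = 0.0187). Of the alpha2delta genes, Cacna2d2 (-5.81, SE 1.01; adjusted p = 0.0154) and Cacna2d1 (-4.28, SE 0.908; adjusted p = 0.0208) passed, and Cacna2d3 (-1.45, SE 1.37; adjusted p = 0.4701) did not. Of the beta genes, only Cacnb4 was called lower (-7.97, SE 1.81; adjusted p = 0.0229), a fitted value that depends on the prior count because its axonal libraries hold 1 count in all. Cacnb1 differed by -3.13 with a wide error (SE 1.32; adjusted p = 0.1218). Its call depended on the libraries and the tool: it was called lower without axonal shControl replicate 1 (-6.57; adjusted p = 0.0148) or replicate 2 (-2.21; adjusted p = 0.0438), by DESeq2 (adjusted p = 0.0437) and with total counts (-4.75; adjusted p = 0.0452). Cacnb3 differed by -0.30 (SE 0.349; adjusted p = 0.5667).

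The median of the 10 genes in this comparison was -5.60, against -0.75 over all genes tested. TMM scaling moved all values in the same direction: scaled by total counts alone, the median of all genes was -2.34 and 9 of the 10 genes passed, Cacnb3 among them at -1.87 (adjusted p = 0.015). The split of all calls moved as well, from 1161 higher and 2284 lower genes with TMM to 609 and 3606 with total counts. Under each of these scalings Cacnb3 lay above the median of all genes. The CPM of the 2 groups did not overlap and was lower in axons for 10 of the 10 genes, which also held for 68.7% of genes tested. The summed markers of macrophages and blood and of muscle were higher in the axonal libraries (values above), but not every marker was. In axonal shControl replicate 2, Csf1r (0.296 CPM) and C1qa (0.369 CPM) were below shControl somata (5.65 and 14.3 CPM or more). Hbb (1.03 CPM) lay between its shControl somatic values. Lyz2 held 2190 CPM of the macrophage and blood sum in that library. Cd68 (373 CPM), Cd14 (125 CPM), Aif1 (39.2 CPM) and Ptprc (19.6 CPM) were above both shControl somatic libraries as well. Acta1 held nearly all of the muscle sum. The part of all these markers in the result was not tested.

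With shPum2 in both compartments, 6 of the 10 genes were lower in axons, in a background of 16.2% of genes called lower and 8.45% higher. Of the 6, Cacna1c, Cacnb1 and Cacna2d2 likewise passed the filter only through their somatic counts. The CPM of all 10 was lower without overlap, as it was for 69.3% of genes. All 4 alpha1 genes were again among them: Cacna1a (-6.39), Cacna1h (-6.28), Cacna1c (-6.20) and Cacna1b (-5.24), with SEs of 0.813 to 1.09 and adjusted p from 0.0076 to 0.0204. Cacna2d2 (-6.98, SE 1.08; adjusted p = 0.012) and Cacnb1 (-6.93, SE 1.6; adjusted p = 0.0247) also passed. Cacna2d1 (-2.71, SE 0.844; adjusted p = 0.0601), Cacnb4 (-2.49, SE 1.33; adjusted p = 0.2352) and Cacna2d3 (-1.86, SE 1.39; adjusted p = 0.3983) did not. Cacnb3 differed by 0.43 (SE 0.35; adjusted p = 0.4414), a value that turned to -1.06 with scaling by total counts. Calls depended on the tool and the scaling here as well. DESeq2, which called 4364 of 12337 genes, also called Cacna2d1 (adjusted p = 0.0146) and Cacnb4 (adjusted p = 0.0392) lower. In edgeR, Cacna2d1 was called with total counts (adjusted p = 0.0186) and in the 4 shPum2 libraries alone (adjusted p = 0.0487). Cacna1b was not called in those 4 libraries (adjusted p = 0.0586). Cacnb1 rested on 6 and 3 axonal counts. The median of the 10 genes was -5.72 and that of all genes -0.64. The 2 comparisons share no library, but their fit shares 1 spread per gene.

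**Figure D3:**
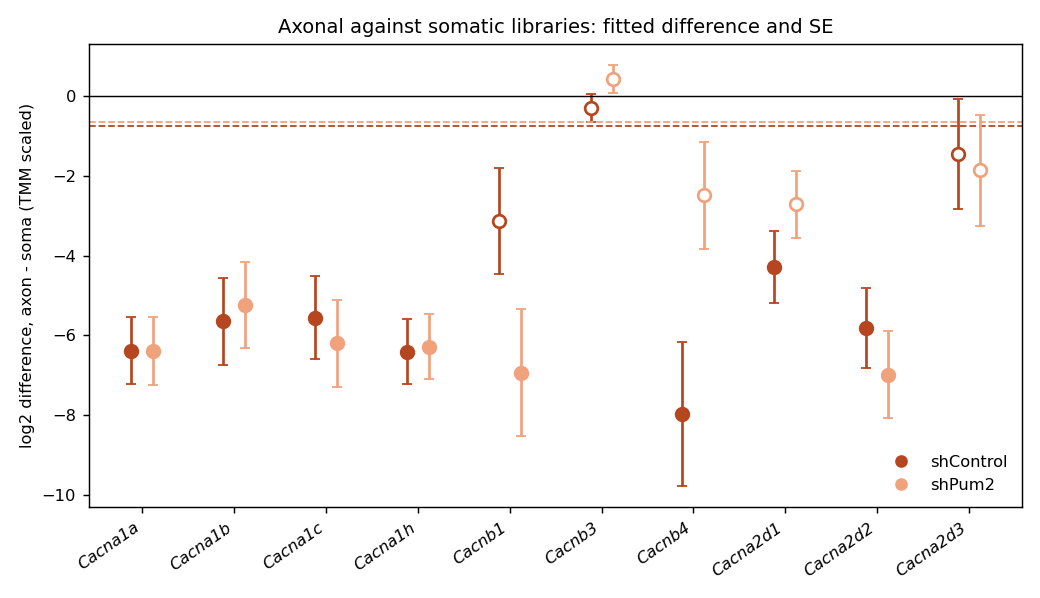
Log2 difference between axonal and somatic libraries (y axis, points with bars of ± 1 SE) for each calcium channel gene in shControl and shPum2 libraries, where filled points passed an adjusted p of 0.05 and dashed lines mark the medians of all genes (-0.75 and -0.64). All 4 alpha1 genes lie below -5 with either hairpin, and Cacnb3 lies at -0.30 and 0.43.

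These calls leaned on the somatic libraries. With either somatic shControl library left out, no gene of the 12705 or 12696 tested passed in the shControl comparison; the smallest adjusted p of the 10 genes was then 0.106 or 0.103, while 7 of them had an unadjusted p below 0.05, as did 27.1% or 27.6% of all genes. With either somatic shPum2 library left out, fewer genes were called in the shControl comparison, among the 10 as among all genes. The median of the 10 genes was then -5.62 in both fits, and that of all genes -0.76 and -0.78. In the shPum2 comparison, leaving out either somatic shPum2 library left 0 calls, with a smallest adjusted p of 0.113 and 0.101. An unadjusted p below 0.05 was then found for 6 of the 10 genes and for 25.1% and 26.3% of all genes. Leaving out somatic shControl replicate 1 or 2 also lowered the number of calls in the shPum2 comparison, among the 10 as among all genes. The median of the 10 genes was -5.74 in both of these fits, and that of all genes -0.68 and -0.67. The medians of the 10 genes in the shControl comparison stayed between -5.64 and -5.60 without either somatic shControl library.

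Transcript length also differed between the classes. The longest listed transcripts of the alpha1 genes measure 7871 (Cacna1h), 8257 (Cacna1c), 8912 (Cacna1a) and 9695 bases (Cacna1b). Those of the beta genes measure 2520 (Cacnb3), 3293 (Cacnb1) and 3790 bases (Cacnb4), and those of the alpha2delta genes 3276 (Cacna2d3), 3502 (Cacna2d2) and 3964 bases (Cacna2d1). Cacnb3 thus had the shortest transcript of the 10. Over the 10 genes, the Spearman correlation of length with the log2 difference was -0.59 with shControl and -0.33 with shPum2. Over all 12337 genes, which share the libraries and the kits, it was -0.32 and -0.35. With shControl, the median difference of all genes was 0.57 for transcripts under 2000 bases (5355 genes), -1.34 from 2000 to 4000 bases (4973 genes), -2.41 from 4000 to 7000 bases (1672 genes) and -2.92 from 7000 bases on (337 genes). The alpha1 genes, at -6.41 to -5.55, were below the median of their own length class, and Cacnb3, at -0.30, was above that of its class. Library kit and compartment cannot be told apart in this relation either.

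**Figure D4:**
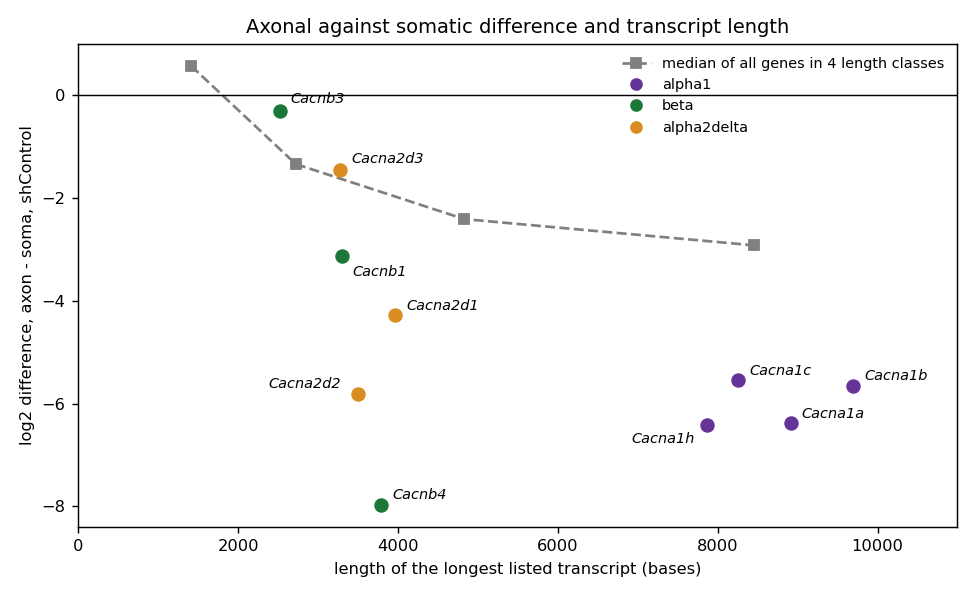
Length of the longest listed transcript in bases (x axis) against the log2 difference between axonal and somatic shControl libraries (y axis) for the 10 calcium channel genes, with grey squares for the median of all genes in 4 length classes, placed at the median length of the class. The 4 alpha1 genes sit at the long end below -5, and Cacnb3, the shortest at 2520 bases, sits at -0.30.

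The question put by the knockdown was whether channel transcripts change when Pum2 is reduced. In somata, 0 of the 10 genes passed the edgeR quasi-likelihood test with Benjamini-Hochberg adjustment, in a background of 0.0081% called (1 of 12346 genes, Pum2 itself). None had an unadjusted p below 0.05, against 0.599% of all genes. DESeq2, which called 0.0162% of genes, called 0 of the 10 too. The limma voom fit called 0 of all 12346 genes, Pum2 included, so it cannot decide about the 10. Every adjusted p of the main edgeR fit was 0.9997. With the replicate number as a block in edgeR, 0 of the 10 passed (smallest adjusted p = 0.838), where 1 of 12346 genes did. In that fit 1 of the 10 had an unadjusted p below 0.05, and the share of all genes below it was not counted.

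The fitted somatic differences were small. Among alpha1 genes the log2 difference of shPum2 from shControl was -0.17 for Cacna1a (SE 0.0878), -0.07 for Cacna1b (SE 0.103), 0.05 for Cacna1c (SE 0.169) and -0.12 for Cacna1h (SE 0.076). Among beta genes it was -0.20 for Cacnb1 (SE 0.114), -0.15 for Cacnb3 (SE 0.125) and -0.36 for Cacnb4 (SE 0.163; unadjusted p = 0.0803). Among alpha2delta genes it was -0.14 for Cacna2d1 (SE 0.0871), -0.01 for Cacna2d2 (SE 0.109) and 0.09 for Cacna2d3 (SE 0.172). The values of 8 of the 10 genes were below 0, where 47.3% of all genes were, and their median was -0.13, against 0.01 over all genes.

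The CPM of both shPum2 libraries lay under that of both shControl libraries for 5 of the 10 genes (Cacna1a, Cacna1h, Cacnb1, Cacnb3 and Cacnb4), where 13.0% of genes did so; no member had the reverse, where 11.5% of genes did. For Cacnb3 the somatic shPum2 libraries stood at 515 and 585 CPM, replicate 1 being the lower. Beside this, replicate 1 of somatic shPum2 had 8520 CPM of the 8 fibroblast markers and 27200 CPM of the neuron markers, where the other 3 somatic libraries had 1630 to 3270 and 31700 to 32000 CPM. Without that library 9 of the 10 differences were below 0 and their median was -0.11, but several values lay nearer 0: Cacnb3 at -0.03, Cacnb1 at -0.07 and Cacna1b at 0.0 after rounding. Cacna1c was then at -0.18 and Cacna2d3 at 0.20. The part of these markers in the differences was not tested.

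**Figure D5:**
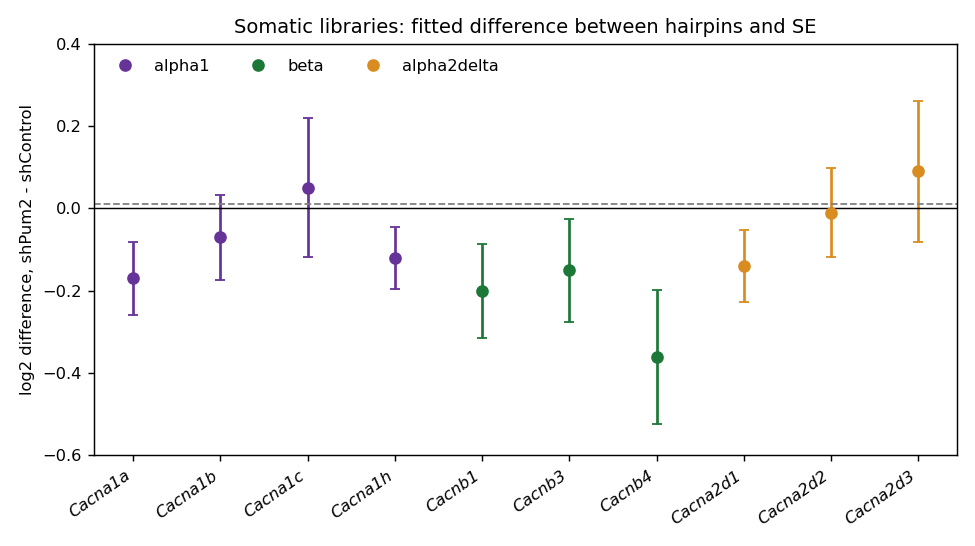
Log2 difference of somatic shPum2 from somatic shControl libraries (y axis, points with bars of ± 1 SE) for the 10 calcium channel genes by subunit class, with a dashed line at the median of all genes (0.01). The points run from -0.36 (Cacnb4) to 0.09 (Cacna2d3), and none passed the test.

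In axons, 6 of the 10 genes had enough counts to be tested for the hairpin; Cacna1c, Cacnb1, Cacnb4 and Cacna2d2 did not. None of the 6 was called by edgeR (0.0% of 8517 genes called) or had an unadjusted p below 0.05, which 3.02% of all genes reached. DESeq2, which called 1.87% of genes, gave an adjusted p for Cacna1b, Cacnb3 and Cacna2d1 only and called none of these 3. The log2 difference of Cacnb3, the only one of them with at least 1472 counts in each axonal library, was 0.53 (SE 0.652). That of Cacna2d1 was 1.40 (SE 2.26), of Cacna1b 0.34 (SE 2.32), of Cacna1a -0.20 (SE 1.61), of Cacna1h -0.04 (SE 1.7) and of Cacna2d3 -0.35 (SE 2.06), all with an adjusted p of 0.9998. Errors of this size can leave even a difference of many fold undetected at this depth and spread. In simulated axonal counts, 16% of 100 genes changed 16-fold were called. The changed genes were drawn from those with a higher mean count than Cacna1a, Cacna1h and Cacna2d3 had in axons. That figure therefore does not cover Cacna1a, Cacna1h and Cacna2d3. For Cacnb3 and Cacna2d1 both values of the libraries labelled axonal shPum2 were above both shControl values, which 15.8% of genes showed. For Cacnb3 the closest libraries both stood at 206 CPM. With no expression filter all 10 genes were tested and 0 passed, where 6 of 12081 genes did.

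The effect of shPum2 in axons was also compared with its effect in somata (the interaction). None of the 10 genes passed, nor did any of the 12337 genes tested (0.0%), while 1 of the 10, Cacnb4 (5.48, SE 2.07; unadjusted p = 0.0346; adjusted p = 0.5723), was among the 7.81% with an unadjusted p below 0.05. DESeq2 called 4.94% of genes and 0 of the 10. Cacnb1 differed by -3.79 (SE 1.82; adjusted p = 0.5723), Cacna2d1 by 1.57 (SE 1.13; adjusted p = 0.7489), Cacna2d2 by -1.16 (SE 1.2; adjusted p = 0.8831) and Cacnb3 by 0.73 (SE 0.494; adjusted p = 0.7281). The 4 alpha1 genes and Cacna2d3 lay between -0.65 and 0.41. These values leaned on axonal shControl replicate 1: without it Cacnb1 stood at -0.31, and Cacna2d1, at 3.33, was called with an adjusted p of 0.0403, as 1 of 713 genes called. Without axonal shControl replicate 2 Cacnb4 stood at 9.29 and Cacna2d1 at 0.80, and without axonal shPum2 replicate 1 Cacnb4 stood at 3.67.

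The authors' deposited table for somata gave the 10 genes log2 fold changes of -0.19 (Cacnb4) to 0.04 (Cacna2d3), each with an adjusted p of 0.9999. In the authors' deposited table for axons Cacnb3 had 0.47 (SE 1.2), Cacna2d1 1.23 and Cacna1b 0.18, each with an adjusted p of 0.9999. The same authors' deposited table gave Cacnb1 a value of -3.21 (SE 1.89; adjusted p = 0.5194). It listed no adjusted p for the other 6 genes.

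Of 16 other genes of the family, 15 were found in the libraries and 8 reached a mean of 5 CPM in a group: Cacna1e and Cacna1g, pores of R-type and T-type channels, and 6 Cacng genes, most of which encode proteins better known as partners of AMPA receptors. Of 9 tested in the shControl compartments, 1 was called lower and 0 higher in axons, where 18.5% and 9.41% of all genes were. Cacng7 had 51.4 ± 1.79 CPM in somata and 0.276 ± 0.0275 CPM in axons (n = 2 each; log2 difference -5.94, SE 1.01; adjusted p = 0.0139). Its shControl axonal counts were 3 and 4. The median of the 9 genes was -2.10, against -5.60 for the 10 genes. Cacna1e had 26.5 and 20.2 CPM in shControl somata and 2.05 and 1.92 CPM in axons (-1.97; adjusted p = 0.2333), and Cacna1g 6.46 and 4.7, and 2.57 and 0 CPM (-0.50).

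The Cacng genes varied between axonal libraries. Cacng2 stood at 30.0 and 24.6 CPM in shControl somata, at 2.57 and 16.7 CPM in shControl axons and at 5.93 and 9.67 CPM in shPum2 axons. Its log2 difference was 0.05 with TMM and -1.50 with total counts. Cacng3 had 7.83 and 8.72 CPM in shControl somata, 3.68 and 25.2 CPM in shControl axons, and 6.96 and 0 CPM in shPum2 axons (2.36, SE 2.06; adjusted p = 0.4331 with shControl). Cacng4 (-4.37; adjusted p = 0.0525), Cacng5 (-2.10) and Cacng8 (-2.11) were not called. With shPum2, 3 of the 9 were called lower in axons, where 16.2% of all genes were: Cacng7, Cacng8 and Cacnb2. Their shPum2 axonal counts were 2 and 2, 0 and 0, and 0 and 0, so these calls lie at the limit of counting. Cacnb2 had 34 counts over the 2 shPum2 somatic libraries. In the somatic knockdown, 0 of the 10 other genes tested were called, with 5 values above and 5 below 0. Cacna1d, the pore of another L-type channel, was not matched to a transcript and is given only from the authors' deposited tables, with a mean normalised signal of 1940 in somata and 8.02 in axons and log2 fold changes of -0.02 and 0.62.

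Genes that act with the channels were counted in the same fits, from lists given by role. Of the channel partners (proteins that bind or regulate channels or the release machinery), 15 were tested in the shControl compartments; 1 was higher and 2 were lower in axons, where 9.41% and 18.5% of all genes were called, and the median was -1.05 against -0.75 over all genes. Dpysl2, which encodes the collapsin response mediator CRMP2, a partner of the N-type channel, fell from 1910 to 84.1 CPM (-2.93, SE 0.354; adjusted p = 0.006). Syt1, a calcium sensor of vesicle release, fell from 186 to 1.13 CPM (-5.77; adjusted p = 0.019). Calm2, a calmodulin gene, stood at 930 and 808 CPM and was called higher after TMM (1.38; adjusted p = 0.0291) but was at -0.20 with total counts. Calmodulin is encoded by 3 genes with the same protein, whose reads can be hard to divide. Stx1a, a syntaxin of the release machinery, differed by -3.38 (adjusted p = 0.0546).

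Of the calcium pumps, exchangers and stores, 22 were tested; 1 was higher and 3 were lower (9.41% and 18.5% of all genes), with a median of -2.01. Pvalb, the calcium buffer parvalbumin, was at 109 and 77.2 CPM in shControl somata and at 489 and 278 CPM in axons (3.64, SE 0.533; adjusted p = 0.0095). Slc8a2, a sodium-calcium exchanger, had 70.1 and 65.7 CPM in somata and 1 and 3 counts in axons (-7.17; adjusted p = 0.0119). Ryr2, a calcium release channel of the endoplasmic reticulum, had 41.6 CPM in somata and 0.344 CPM in axons (-5.33; adjusted p = 0.0215). Atp2a3, with 28 somatic counts and 0 in axons, was also called, near the limit of counting, but not by DESeq2 (adjusted p = 0.366).

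Among the 12 genes of voltage-gated sodium channels, all tested, 6 were called lower and 0 higher (18.5% and 9.41% of all genes), with a median of -5.32 beside the -5.60 of the calcium channel genes. Scn10a, the pore of the tetrodotoxin-resistant channel Nav1.8, had 1160 and 1050 CPM in shControl somata and 1.8 and 6.95 CPM in axons (-6.41, SE 1.27; adjusted p = 0.0191). Scn3b, a sodium channel beta subunit, had 294 and 275, and 2.65 and 0.813 CPM (-5.76, SE 0.876; adjusted p = 0.0105). Scn1a and Scn4b held 1 and 0 counts in shControl axons, so their calls lie at the limit of counting. With the replicate number as a block both calls were lost (adjusted p = 0.0503 for Scn1a and 0.053 for Scn4b), and DESeq2 did not call Scn4b (adjusted p = 0.161). With shPum2, where 8.45% of genes were called higher and 16.2% lower, partners gave 1 higher and 2 lower (median -0.29), pumps and stores 1 and 5 (median -3.95) and sodium channels 0 and 4 (median -2.10). In the somatic knockdown no gene of these lists passed; 13 of 16 partners, 9 of 22 pump and store genes and 8 of 12 sodium channels had values below 0, where 47.3% of all genes did. Their medians were -0.05, 0.07 and -0.17, against 0.01 over all genes. In the axonal knockdown 0 of the 14, 9 and 8 tested passed.

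Likeness of pattern was measured over the 8 libraries as the root mean square difference between centred log2(CPM + 1) values, among 8031 genes. The genes most like Cacnb3 were Gnb2 (0.114), Akap8l (0.115) and Ankrd46 (0.123). Gnb2, which encodes a G protein beta subunit, stood at 703 and 721 CPM in shControl somata, 672 and 716 in shPum2 somata, 170 and 229 in shControl axons and 335 and 239 in shPum2 axons. Like Cacnb3, it was lower in every axonal than in every somatic library, with the highest axonal value in shPum2 replicate 1. The genes most like Cacna1b were Kif3b (0.226), a kinesin motor subunit, Irgq (0.256) and Eef1a2 (0.292), an elongation factor of neurons and muscle. Those most like Cacna2d1 were Kcnab2 (0.187), a potassium channel beta subunit, Agrn (0.303) and Psme4 (0.314). Likeness over these libraries mostly follows the compartments and the replicates, and it says nothing of shared function.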

How the data were processed

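Estimated counts and TPM for 18321 transcripts in each of 8 libraries, with lengths, were deposited by the authors, per the file headers, and kallisto, DESeq2 and the build Rnor_6.0 are named in the submitters' processing notes, without tool versions. The authors' 2 deposited comparison tables hold, per the file headers, normalised signal averaged over libraries, fold changes with errors (log2), a test score and p-values. Transcripts were named through a RefSeq table of assembly GRCr8 (17367 matched, 94.8%), used for names only. These counts were added up within each of 17379 genes and then rounded. kallisto divides reads shared by similar genes by estimate.

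Tests used edgeR 4.0.16 (R 4.3.3): quasi-likelihood test, TMM, filterByExpr and Benjamini-Hochberg adjustment over all genes tested, threshold 0.05, with 4 somatic, 4 axonal or all 8 libraries. CPM is over the library total. Counting intervals (95%) and the floor of 3 counts cover counting error only. Scripts were tested on simulated data with 100 genes changed at each fold, drawn only from genes above a minimum mean count. In the somatic knockdown, 60% of 2-fold and 94% of 4-fold changes were called. In the axonal knockdown, 16% of 16-fold and 59% of 256-fold changes were called. Between shControl compartments the figures were 9% for 16-fold and 44% for 256-fold changes. Alternatives were RLE factors, total counts, no filter, DESeq2 1.42.0, limma voom 3.58.1, the replicate block, other sets of libraries, and each library left out.

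The members and lists were chosen with earlier results of these data known. Named were all members, family genes at a mean of at least 5 CPM in a group, up to 4 genes per list by smallest p, and 3 genes most alike in pattern, among genes reaching 10 CPM. Cacnb2 was named after its value was seen. Sequences were not used here.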

Additional observations from a re-analysis of the deposited data

Results flagged for a closer look

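For 2 genes both shPum2 libraries lay below both shControl libraries in somata and above them in axons, for Cacnb3 only by a difference smaller than the digits printed. The share of all genes with this double pattern was not counted, so the number of 2 cannot be judged against it. Taken singly, 13.0% of genes tested lay lower in this way in somata and 15.8% higher in axons. Cacnb3 stood at 607 and 606 CPM against 515 and 585 CPM in somata and at 126 and 206 CPM against 323 and 206 CPM in axons, with a difference between the effects of 0.73 on the log2 scale (SE 0.494; edgeR adjusted p = 0.7281). Cacnb4 stood at 35.4 and 26.7 CPM against 24.2 and 24.3 CPM in somata and at 0 and 1 counts against 38 and 5 counts in axons, with a difference of 5.48 (SE 2.07; edgeR adjusted p = 0.5723). The closest axonal libraries of Cacnb3, both 206 CPM, are in effect equal. In neither gene did the test of the difference pass. Neither was called in the axonal or the somatic knockdown alone, and Cacnb4 was not tested in axons.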

How the results depend on the processing

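Counts of the 10 genes called lay between 0 and 9 (shControl axons against somata) and between 0 and 8 (shPum2) with each library left out in turn, between 0 and 1 for the interaction, and were 0 under every alternative for the somatic and axonal knockdowns. Of the alternative values of single members, 115 in the shControl and 117 in the shPum2 compartment comparison kept their direction and side of the threshold, 26 and 24 lost the call, 6 and 8 gained it, and 3 and 1 reversed. The labels give no shared source for replicate numbers, and deviations of same-numbered libraries correlated at 0.78 between the somatic groups and at 0.05 to 0.15 elsewhere. With the replicate block in edgeR, 7 and 6 of the 10 genes were called in the shControl and shPum2 comparisons, beside 2370 and 2199 of 12337 genes. The block reversed Cacna1b (-0.16), Cacna1h (0.11) and Cacna2d3 (0.74) in the axonal knockdown. Between shControl compartments it reversed Cacng2 (-0.35) and ended the calls of Scn1a (adjusted p = 0.0503) and Scn4b (adjusted p = 0.053).

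Other reversals were of values within their errors, or of scaling. In the axonal knockdown, total counts gave Cacna1a 0.03 and Cacna1h 0.04, voom gave Cacna1b -0.13, Cacna1h 0.07 and Cacna2d3 0.81, and a single fit of 8 libraries gave Cacna1h 0.0. In the interaction, total counts gave Cacna1a 0.16, and voom Cacna1b -0.08 and Cacna2d3 0.52. Between shControl compartments, RLE factors and DESeq2 gave Cacnb3 0.02, total counts Cacng2 -1.5 and Calm2 -0.2, and voom Cacng2 -0.42. Between shPum2 compartments total counts gave Cacnb3 -1.06. The log2 of the axonal over the somatic class sum was, in CPM and TPM, -7.49 and -8.74 (alpha1, shControl), -2.17 and -3.26 (beta, shControl), -1.37 and -2.43 (beta, shPum2), and -4.73 and -5.9 (alpha2delta, shPum2).

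With each library left out, values crossing 0 ranged in the axonal knockdown from -0.9 to 0.36 (Cacna1a), -1.82 to 1.2 (Cacna1b), -0.55 to 0.89 (Cacna1h) and -1.28 to 3.03 (Cacna2d3). In the interaction they ranged from -0.52 to 0.56 (Cacna1a), -1.51 to 1.21 (Cacna1b), -1.16 to 0.09 (Cacna1c), -0.4 to 1.05 (Cacna1h), -1.91 to 0.4 (Cacna2d2) and -1.34 to 3.01 (Cacna2d3). In the somatic knockdown they ranged from -0.18 to 0.25 (Cacna1c), -0.14 to 0.1 (Cacna2d2) and -0.03 to 0.2 (Cacna2d3). Between shControl compartments they ranged from -9.32 to 0.49 (Cacna1g), -0.67 to 0.06 (Cacnb3) and -1.81 to 0.91 (Cacng2). Among values that kept their sign, the interaction ranged from -4.73 to -0.31 (Cacnb1), 3.67 to 9.29 (Cacnb4) and 0.8 to 3.33 (Cacna2d1), and the shControl compartment difference from -6.57 to -2.21 (Cacnb1), -11.81 to -7.04 (Cacnb4) and -5.97 to -3.53 (Cacna2d1). The cause was not tested.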
